A study of Bos taurus with 28 samples.

Results

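The enzymes that turn propionyl-CoA into succinyl-CoA, and the succinyl-CoA ligase that follows them, were read in bovine liver at every probe set whose annotated symbol, old or current, is PCCA, PCCB, MCEE, MMUT (formerly MUT), MMAA, MMAB, SUCLG1 or SUCLG2. A probe set is a group of short probes for 1 transcript. The 8 genes are represented by 9 probe sets, MMAB by 2 and each other gene by 1, among 24016 probe sets other than controls and 9155 genes that the annotation names with a single symbol. Each gene has 1 probe set among those tested, and the other MMAB probe set was below the filter on low signals.

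Liver biopsies came from ovariectomized, dry Holstein cows, which lack the ovarian source of both hormones, and were taken after 14 days. The 28 arrays fall into 4 groups of 7, namely cows without hormone exposure (CO), with an ear implant releasing estradiol (E2T), with a vaginal device delivering progesterone (P4T), or with both (E2P4T). The study's methods describe a replicated Latin square, in which a cow passes through several treatments, but the labels name neither cow nor period. Arrays of different groups therefore share cows, the p-values take no account of it, and precision is limited by how many arrays there are. The labels do not give the age of the cows.

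Propionate is produced by fermentation in the rumen, reaches the liver through the portal vein and is the main precursor of glucose in ruminants. In hepatocyte mitochondria, propionyl-CoA is carboxylated by propionyl-CoA carboxylase, a biotin enzyme with the subunits PCCA and PCCB. MCEE then epimerizes the methylmalonyl-CoA formed, and MMUT, a mutase that needs adenosylcobalamin, rearranges it to succinyl-CoA, which enters the citric acid cycle on its way to glucose. MMAB makes adenosylcobalamin, MMAA is the GTPase that guards its transfer to the mutase, and SUCLG1 and SUCLG2 form the ligase that converts succinyl-CoA to succinate with formation of GTP.

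No member passed the test in any comparison. With limma and Benjamini-Hochberg adjustment over all tested probe sets, 0 of 8 members had an adjusted p under 0.05 against CO in any treatment, in the contrasts between treatments, in the main effects of the hormones, in their interaction, or in the F test over the groups. The background was 0.0% of all tested probe sets in each of these comparisons. The lowest adjusted p of a member was 0.8735. At an unadjusted p under 0.05, MMAB was lower in E2P4T and PCCA had a negative interaction of estradiol and progesterone. Against CO, all tested probe sets passed that unadjusted limit at 1.46% higher and 3.96% lower in E2T, 0.946% and 1.82% in P4T, and 2.18% and 2.72% in E2P4T. In a bulk biopsy, fewer cells of a type and less RNA per cell cannot be told apart.

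2 arrays stood apart and touch the values of most members. On E2P4T array 5, the mean log2 signal of 20 hepatocyte markers was 10.07, against 14.90 to 15.83 on the 26 arrays other than this one and P4T array 4. On the same array, 10 kidney tubule markers averaged 10.10 against 5.09 to 8.16, with 8 of the 10 above all 26 arrays. The kidney cadherin CDH16 read 14.42 there, with 8.75 as its highest value on the 26 arrays. Of 5 bile duct markers, 4 were above all 26 arrays. P4T array 4 had a hepatocyte mean of 15.24, inside the range of the 26. The hybridization spikes averaged 18.27 on E2P4T array 5 and 17.31 on P4T array 4 on the log2 scale, both above the 12.95 to 16.26 of the 26 arrays. PCCA, PCCB, MMUT, MMAB and SUCLG2 were below the range of the 26 arrays on E2P4T array 5, and SUCLG1 was above it. PCCB, SUCLG1 and SUCLG2 were below that range on P4T array 4, and MMAB was above it. The part of these arrays in each result was not tested, and the main results are given with and without them. The study reports that it left out an outlying P4T array and an outlying E2P4T array. Whether those are the 2 above cannot be told from the labels.

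**Figure D1:**
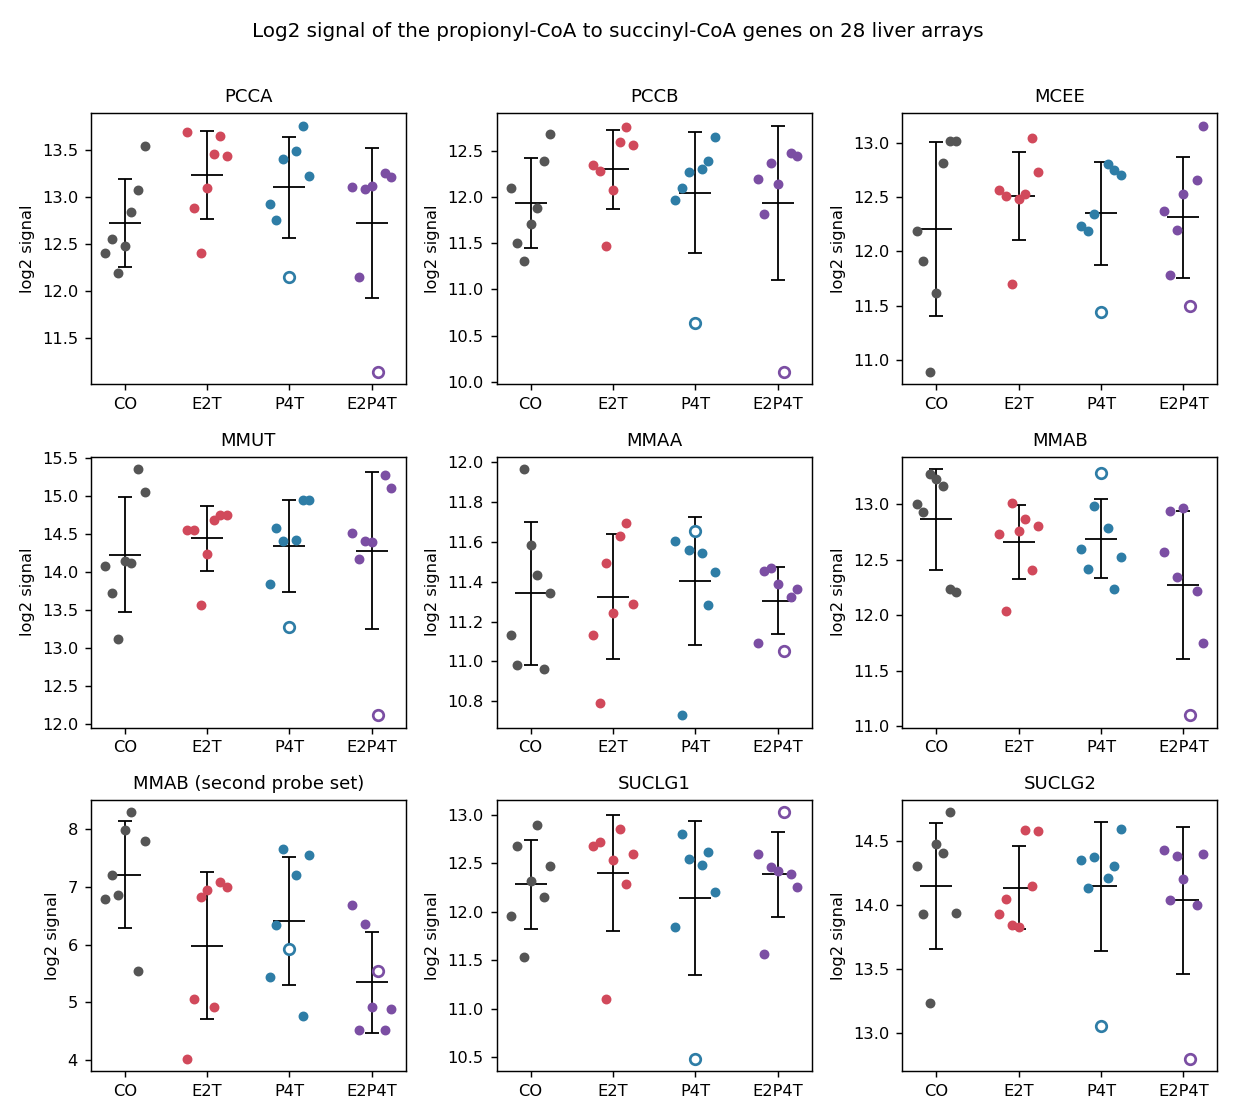
Log2 signal (vertical axis) of the 9 probe sets on each array (points) by treatment group (horizontal axis), with the mean (long line) and SD (bars, n = 7). Open circles mark P4T array 4 and E2P4T array 5, and in every panel the values of the treated groups overlap those of CO.

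PCCA (probe set Bt.620.1.S1_at) encodes the subunit that carries biotin. In CO its log2 signal ran from 12.19 through a median of 12.55 to 13.54, and in E2T from 12.40 through 13.44 to 13.69. P4T ran from 12.16 through 13.22 to 13.76, and E2P4T from 11.14 through 13.11 to 13.26. The median of each treated group lay above that of CO, and the groups overlapped. The log2 fold change was 0.50 in E2T (SE 0.30, limma adjusted p = 0.8735), 0.38 in P4T (SE 0.30, adjusted p = 1.0) and 0.00 in E2P4T (SE 0.30, adjusted p = 1.0). In exact permutation tests of each group against CO, two-sided, p was 0.0711, 0.182 and 1.0. In E2T the 95% interval reached from -0.10 to 1.11, so that a level 2.16-fold that of CO remained inside it.

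Without P4T array 4 and E2P4T array 5, the PCCA differences were 0.50, 0.53 and 0.26 in E2T, P4T and E2P4T. The limma adjusted p-values were 0.45, 0.59 and 0.69, and the exact permutation p-values were 0.0711, 0.0478 and 0.302. PCCA was the single member higher at an unadjusted limma p under 0.05 in E2T and in P4T. Among all tested probe sets, 3.03% were higher at an unadjusted p under 0.05 in E2T and 2.4% in P4T with these arrays left out. The 3 differences share the CO arrays. Without CO array 3 and with all others, the PCCA differences were 0.42, 0.29 and -0.09.

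The interaction of the hormones, meaning the E2P4T difference less the sum of the E2T and P4T differences, was -0.88 for PCCA (SE 0.42, limma adjusted p = 0.9995). It was -0.78 without P4T array 4 and E2P4T array 5 (SE 0.32, limma adjusted p = 0.98). PCCA was the single member past an unadjusted p of 0.05 here, where 0.583% of all tested probe sets were lower and 2.4% higher at that limit. The interaction was negative for 7 of the 8 members, and negative for 41.6% of all tested probe sets. Without P4T array 4 and E2P4T array 5 it was negative for 6 of the 8 and for 42.1% of all tested probe sets. The members share the same arrays, so their signs are not separate observations. PCCA met the unadjusted limit in 22 of 38 alternatives, and leaving out any 1 array moved its interaction between -1.04 and -0.62.

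PCCB (Bt.5108.1.S1_at), the other carboxylase subunit, read from 11.31 through a median of 11.88 to 12.68 in CO and from 11.47 through 12.35 to 12.76 in E2T. In P4T it read from 10.64 through 12.27 to 12.64, and in E2P4T from 10.11 through 12.20 to 12.48. The lowest P4T and E2P4T values are those of the 2 arrays that stood apart, and the next lowest were 11.97 and 11.82. The log2 fold changes were 0.36, 0.11 and -0.00 (SE 0.31) in E2T, P4T and E2P4T, and 0.36, 0.34 and 0.30 without those arrays. The limma adjusted p-values were 0.885, 1.0 and 0.9992 with all arrays. The difference between the PCCA and PCCB log2 signals, which carries each probe set's own brightness and is read only between groups, was 0.79 ± 0.24 for CO, 0.93 ± 0.22 for E2T, 1.06 ± 0.35 for P4T and 0.79 ± 0.23 for E2P4T (SD, n = 7). The 4 groups overlapped in it.

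MCEE (Bt.16108.1.A1_at), the epimerase, averaged 12.21 ± 0.80 for CO, 12.51 ± 0.41 for E2T, 12.35 ± 0.47 for P4T and 12.31 ± 0.56 for E2P4T (SD, n = 7). The CO values spread most widely, from 10.89 on array 3 to 13.01 on array 7, and held every E2T value but the highest one, 13.04. The log2 fold changes of 0.30, 0.14 and 0.11 were no more than slightly above their SE of 0.29, with limma adjusted p-values of 0.89, 1.0 and 0.9865. Leaving out CO array 3 lowered the E2T value to 0.08 and turned the P4T and E2P4T values to -0.08 and -0.11.

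MMUT (Bt.7169.1.S1_at) encodes the mutase. Its log2 signal ran from 13.12 through a median of 14.12 to 15.36 in CO, and from 13.56 through 14.56 to 14.76 in E2T. In P4T it ran from 13.27 through 14.42 to 14.96, and in E2P4T from 12.11 through 14.41 to 15.28. CO held the highest MMUT value of all arrays, and the groups overlapped across most of their range. The log2 fold changes, in the same order of treatments, were 0.21, 0.12 and 0.05, each below the SE of 0.38, and the limma adjusted p-values were 0.939, 1.0 and 0.9951. Without the 2 arrays that stood apart they were 0.21, 0.30 and 0.42, with adjusted p-values of 0.783, 0.756 and 0.613. Without CO array 3, its lowest array in CO, MMUT was at 0.03, -0.07 and -0.13.

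The cobalamin genes differed from each other in spread. MMAA (Bt.5496.1.A1_at), the GTPase, averaged 11.34 ± 0.36 for CO, 11.32 ± 0.31 for E2T, 11.40 ± 0.32 for P4T and 11.31 ± 0.17 for E2P4T (SD, n = 7). Its SD within groups was 0.30 on the log2 scale, with a median of 0.73 over all tested probe sets, and 3.97% of them had a lower one. Without the 2 arrays that stood apart its SD was 0.30, the median was 0.58, and 8.74% of all tested probe sets had a lower SD. The brighter probe sets of all 8 members were then below that median. MMAA also read 11.05 on E2P4T array 5, within the 10.73 to 11.97 of the 26 arrays. Its log2 fold changes were -0.02, 0.06 and -0.04 (SE 0.18). The 95% intervals lay between -0.40 and 0.42 in all 3 contrasts with CO, the narrowest of the 8 genes.

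MMAB (Bt.8451.1.S1_a_at), the adenosyltransferase, had the lowest fold change of the 8 genes in each contrast with CO. It read from 12.21 through a median of 13.01 to 13.28 in CO and from 12.04 through 12.76 to 13.02 in E2T. In P4T it read from 12.24 through 12.60 to 13.29, and in E2P4T from 11.10 through 12.35 to 12.97. Every treated median was below the CO median, and 2 CO arrays, at 12.21 and 12.23, lay among the low values of the treated groups. The log2 fold change was -0.20 in E2T (SE 0.25, limma adjusted p = 0.913), -0.17 in P4T (SE 0.25, adjusted p = 1.0) and -0.59 in E2P4T (SE 0.25, adjusted p = 0.933). The 95% interval in E2P4T was -1.10 to -0.09, and the exact permutation p for E2P4T against CO was 0.0781. By the limma fit, MMAB was thus 1 of 8 members at an unadjusted p under 0.05 in the lower direction, where the background was 2.72%. E2P4T array 5, with its low hepatocyte markers, carried the lowest MMAB value. Without it and P4T array 4, MMAB was -0.40 in E2P4T (SE 0.21, limma adjusted p = 0.537), and no member was lower at the unadjusted limit, against 6.51% of all tested probe sets.

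The other MMAB probe set (Bt.8451.2.S1_at) was dim, with a highest signal of 313.4 on any array, below the 353.2 at which the filter was set. It averaged 7.21 ± 0.93 for CO, 5.98 ± 1.27 for E2T, 6.41 ± 1.11 for P4T and 5.35 ± 0.88 for E2P4T (SD, n = 7). Fitted without the filter, it was -1.23, -0.80 and -1.86 (SE 0.59) from CO, with limma adjusted p-values of 0.81, 1.0 and 0.933. Its unadjusted limma p in this fit was under 0.05 in E2T and in E2P4T. At that limit 1154 of all 24016 probe sets were lower in E2T and 748 in E2P4T. The exact permutation p-values were 0.0641, 0.167 and 0.0041, the last of them the single value under 0.05 among 27 such tests of the 9 probe sets over all arrays. Without P4T array 4 and E2P4T array 5, 2 of the 27 were under 0.05, this probe set in E2P4T (exact permutation p = 0.007) and PCCA in P4T (0.0478). No detection calls were analysed, so this probe set is not shown to be above background, and it lends nothing to the values of the brighter one. Over the 26 arrays the values of the 2 MMAB probe sets within groups correlated at r = 0.28 (Spearman's rho 0.24). E2P4T array 5 read 5.54 at this probe set, above the mean of its group.

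SUCLG1 (Bt.2711.1.S1_at), the alpha subunit that both succinyl-CoA ligases use, averaged 12.28 ± 0.46 for CO, 12.40 ± 0.60 for E2T, 12.14 ± 0.79 for P4T and 12.39 ± 0.44 for E2P4T (SD, n = 7). Its values ran against those of the carboxylase and mutase on E2P4T array 5, at 13.03 the highest of all arrays, and reached their lowest on P4T array 4, at 10.48. The log2 fold changes were 0.11, -0.14 and 0.10 (SE 0.30), with limma adjusted p-values of 0.964, 1.0 and 0.988. Without these arrays the P4T value was 0.13 and the E2P4T value -0.01, so that both signs turned.

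SUCLG2 (Bt.23260.1.S1_at), the beta subunit specific for GDP, averaged 14.14 ± 0.49 for CO, 14.14 ± 0.32 for E2T, 14.15 ± 0.50 for P4T and 14.04 ± 0.57 for E2P4T (SD, n = 7). The log2 fold changes were -0.01, 0.00 and -0.11 (SE 0.27), with limma adjusted p-values of 0.996, 1.0 and 0.982. Without the 2 arrays the P4T value became 0.18 and the E2P4T value 0.10, and without CO array 3 the differences were -0.16, -0.15 and -0.26. SUCLA2, the beta subunit specific for ADP and no member here, was at -0.05, -0.15 and 0.12 (SE 0.25, limma adjusted p-values of 0.982, 1.0 and 0.979).

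**Figure D2:**
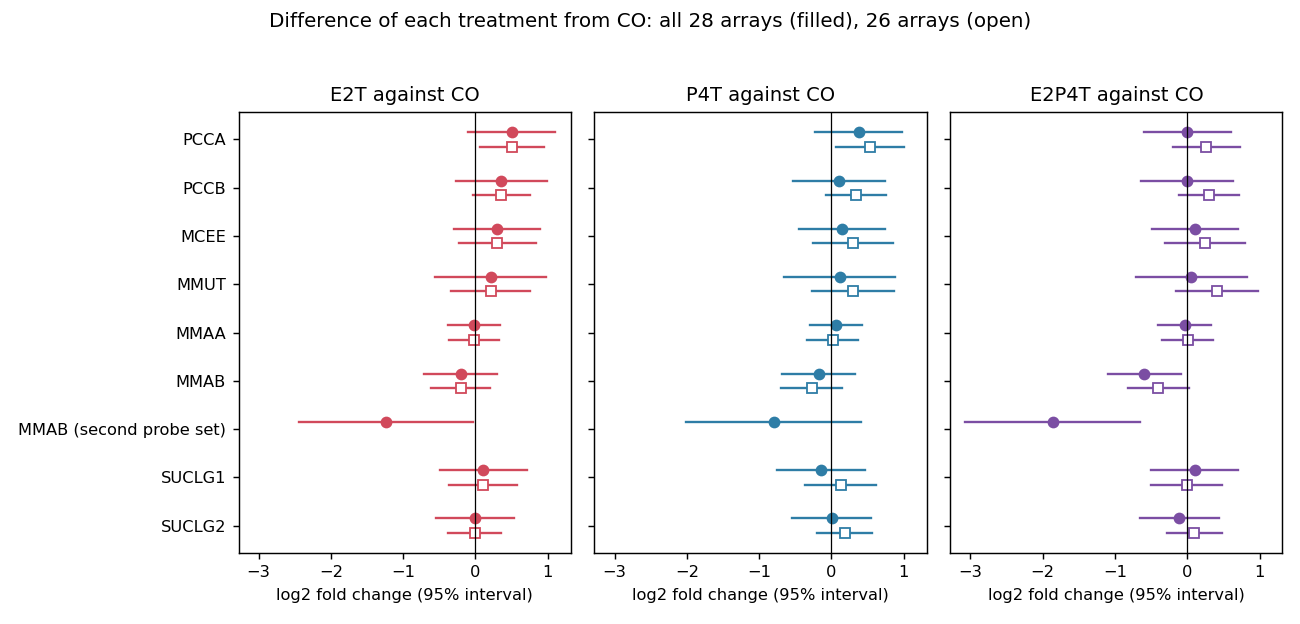
Log2 fold change from CO (horizontal axis) with its 95% interval for each probe set in E2T, P4T and E2P4T. Filled circles use all 28 arrays and open squares the 26 arrays without P4T array 4 and E2P4T array 5, and the dim MMAB probe set is shown from the fit without a filter only. The interval of the brighter MMAB probe set in E2P4T excludes 0 with 28 arrays (-1.10 to -0.09) and includes it with 26. That of the dim MMAB probe set excludes 0 in E2T and in E2P4T.

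Taken as a list, the 8 genes had a median log2 fold change of 0.16 (E2T), 0.08 (P4T) and -0.00 (E2P4T), while the medians of all tested probe sets were -0.10, -0.03 and -0.02. Higher than CO were 5, 6 and 4 of the 8, and 40.2%, 46.3% and 48.3% of all tested probe sets. Without the 2 arrays that stood apart the medians of the list were 0.16, 0.24 and 0.17, and 5, 7 and 6 of the 8 were higher. The medians of all tested probe sets were then -0.10, -0.09 and -0.09, and 40.2%, 40.9% and 41.5% of them were higher. MMAB was lower in all 3 contrasts with either set of arrays, and in P4T without the 2 arrays it was the single member below 0. On those 26 arrays the hepatocyte marker mean was 15.51 ± 0.17 in CO (SD, n = 7), 15.23 ± 0.17 in E2T (SD, n = 7), 15.22 ± 0.24 in P4T (SD, n = 6) and 15.25 ± 0.31 in E2P4T (SD, n = 6), and its part in the members' differences was not tested.

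Of the 24 differences of a member from CO, 22 had a 95% interval that stayed within 1 log2 unit on either side of 0. The exceptions were PCCA in E2T, with an upper bound of 1.11, and MMAB in E2P4T, with a lower bound of -1.10. The groups of 7 arrays thus leave room for differences of less than 2-fold in nearly every member, and an adjusted p above 0.05 does not show that a level was the same. In none of the 3 contrasts did a member have groups without overlap, and 0.118%, 0.0214% and 0.0321% of all tested probe sets had them in E2T, P4T and E2P4T.

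PCCA, PCCB, MCEE and MMUT varied together from array to array within the groups, and the other 4 members did not follow them in the same way. After each gene was centred on its group means, the 6 pairs among PCCA, PCCB, MCEE and MMUT had Pearson correlations of 0.74 to 0.89 over the 26 arrays, with PCCB and MMUT the closest. MMAA was at -0.36 to -0.02 with these 4 genes. MMAB ran the other way, at r of -0.71 to -0.46, the lowest being that with MMUT. A further exclusion of CO array 3 and E2T array 3, chosen after seeing the data, left 0.64 to 0.84 for the 6 pairs and -0.68 to -0.37 for those with MMAB. Over all 28 arrays the pairs with MMAB lay between -0.37 and -0.03. These are descriptions without a test, since arrays of different groups share cows and also share the array-wide signal. A cow that gave several arrays counts more than once in these correlations. Arrays 6 and 7 had the highest MMUT signals in each of the 4 groups. Which arrays share a cow is not in the labels, and the part of single cows in the correlations was not tested.

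SUCLG1 correlated with PCCA, PCCB, MCEE and MMUT at 0.48 to 0.60 over the 26 arrays, but at 0.02 to 0.36 without CO array 3 and E2T array 3. SUCLG2 correlated with them at 0.35 to 0.54 over 26 arrays and at 0.12 to 0.32 over these 24. Over all 28 arrays SUCLG2 was at 0.66 to 0.82 with them and SUCLG1 at 0.29 to 0.48, while their own 6 pairs were at 0.80 to 0.93. The 2 ligase subunits themselves had r = 0.36 over 26 arrays and -0.03 over 24. MMAA and MMAB, the cobalamin genes, had r = 0.45 and 0.38. The members also moved with measures of the arrays themselves. Over the 26 arrays the hybridization spikes correlated with PCCA at -0.62, with PCCB at -0.59, with MCEE at -0.61 and with MMUT at -0.49, and with MMAB at 0.41. The median log2 signal of an array correlated with the first 4 genes at -0.50 to -0.38. Over the 24 arrays the spikes were at -0.43, -0.22, -0.22 and -0.04 with these genes and at 0.27 with MMAB. The part of spikes and array median in the correlations between genes was not tested. The hepatocyte marker mean correlated with PCCA at -0.10, with PCCB at -0.02, with MCEE at 0.01 and with MMUT at 0.13 over the 26 arrays. Over all 28 arrays it was at 0.57, 0.63, 0.30 and 0.65 with these genes.

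**Figure D3:**
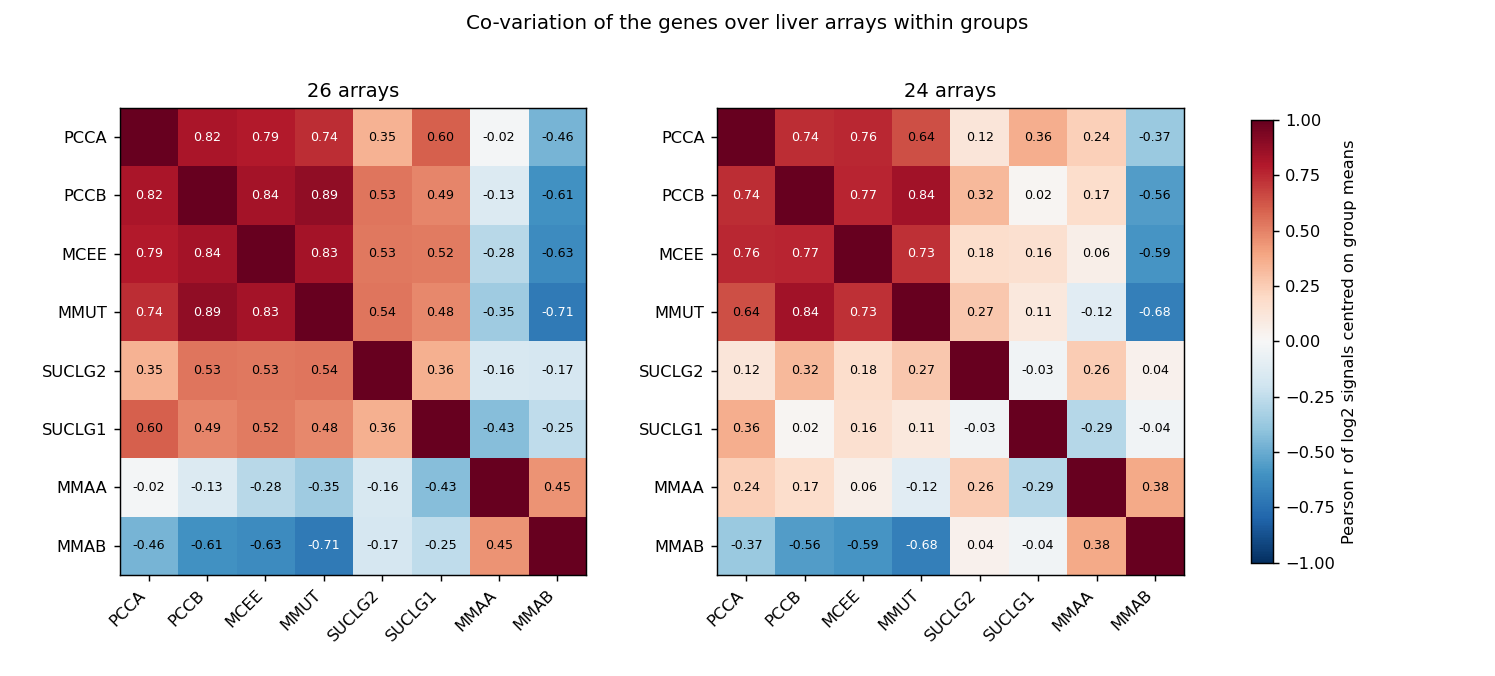
Pearson correlation of log2 signals, centred on group means, for each pair of genes over 26 arrays (left) and over 24 arrays that also leave out CO array 3 and E2T array 3 (right). PCCA, PCCB, MCEE and MMUT form a block of positive values, and MMAB is negative with each of them.

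The genes most like each member were taken over the 26 arrays among tested probe sets with 1 symbol. For PCCA they were SLC25A3, the mitochondrial phosphate carrier (r = 0.92 over 26 arrays, 0.55 over 28), PDLIM1 and TGOLN2. For PCCB they were SLC39A9, a zinc transporter (0.93 and 0.78), C1QBP and a probe set annotated as RPS4Y1. MCEE had IDH1, the cytosolic isocitrate dehydrogenase (0.93 and 0.88), TRIAP1 and PYGL. MMUT had AMACR, a racemase of branched fatty acyl-CoA (0.95 and 0.83), EIF4A2 and SLC39A9. Counted separately for each of these 4 genes, the share of all tested probe sets with r over 0.5 ran from 9.64% (PCCA) to 11.9% (MMUT).

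For MMAA the closest genes were ULK2 (0.85 over 26 arrays, 0.82 over 28), SV2A and DKC1, and for MMAB GPS1 (0.84 and 0.42), NPRL2 and POLR1E. SUCLG1 was nearest to PPIB, an endoplasmic reticulum prolyl isomerase (0.91 and 0.78), SMDT1 and SDHB, a subunit of the succinate dehydrogenase that acts on the product of the ligase. SUCLG2 was nearest to CCDC47 (0.79 and 0.75), HSPA9 and CA13.

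The enzymes around the pathway were read in 4 lists, each gene at its probe set of highest mean. 18 genes of propionyl-CoA supply (propionate activation and the breakdown of branched-chain amino acids) were tested, with medians of 0.03, -0.07 and 0.04 in E2T, P4T and E2P4T. None had an adjusted p under 0.05 in any of them. BCAT2, the mitochondrial branched-chain aminotransferase, was at -1.59 in E2T (SE 0.59, limma adjusted p = 0.873). It was the single gene of the list at an unadjusted p under 0.05 there, where 3.96% of all tested probe sets were lower at that limit. The highest in E2T and E2P4T was ACADSB, an acyl-CoA dehydrogenase (0.90 and 0.94, SE 0.77), a gene of low signal. In P4T the ends were HIBADH at 0.40 and the acetyl-CoA synthetase ACSS1 at -0.51, and the lowest in E2P4T was ACSS2 at -0.64. Another tested ACSS1 probe set was at 0.11 in P4T (SE 0.64).

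Among 11 tested genes of cobalamin and biotin handling, 0 had an adjusted p under 0.05 in the contrasts with CO, and with all arrays 0 had an unadjusted one. MMACHC, which processes cobalamin on entry to the cell, was at 0.60, -0.08 and 0.81 (SE 0.40, limma adjusted p-values of 0.875, 1.0 and 0.933), and 6 of 7 E2P4T arrays lay above the CO mean. MMADHC, which directs cobalamin to its destinations, was at 0.44, -0.14 and 0.31 (SE 0.38), and at 0.44, 0.31 and 0.50 without the 2 arrays that stood apart, where its E2P4T value passed the unadjusted limit (limma adjusted p = 0.52). With those arrays left out, 2.99% of all tested probe sets were higher in E2P4T at that limit. The exporter ABCC1 was lowest in E2T and P4T (-1.38 and -1.44, SE 0.91), the transporter SLC5A6 highest in P4T (0.43) and BTD, the biotinidase, lowest in E2P4T (-0.59). Another tested ABCC1 probe set, with a mean log2 signal of 4.85, was at -1.29 in E2T and -0.16 in P4T (SE 1.02). The BTD value was -0.03 without P4T array 4 and E2P4T array 5.

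The other biotin carboxylases lay below CO more often than PCCA and PCCB did, a difference that was not tested. PC, pyruvate carboxylase, which supplies oxaloacetate to gluconeogenesis, averaged 12.31 ± 0.39 for CO, 11.80 ± 0.37 for E2T, 11.64 ± 0.52 for P4T and 11.98 ± 0.50 for E2P4T (SD, n = 7). Its log2 fold change was -0.51 in E2T (SE 0.24, limma adjusted p = 0.873), -0.67 in P4T (SE 0.24, adjusted p = 1.0) and -0.33 in E2P4T (SE 0.24, adjusted p = 0.933), and the first 2 were past an unadjusted limma p of 0.05. At that limit 3.96% of all tested probe sets were lower in E2T and 1.82% in P4T. In each treatment 1 of the 7 arrays lay above the CO mean. Without the 2 arrays that stood apart PC was at -0.51, -0.65 and -0.48. The acetyl-CoA carboxylases were at -0.73, -0.59 and -0.55 for ACACA (SE 0.39) and at -0.97, -0.61 and 0.06 for ACACB (SE 0.65), whose highest E2P4T array read 11.37 and whose values without the 2 arrays were -0.97, -0.94 and -0.66. MCCC1, of leucine breakdown, was at -0.08, -0.06 and 0.02. All 4 carboxylases were below CO in E2T and in P4T, where their medians were -0.62 and -0.60, and 2 of 4 in E2P4T, while 59.8%, 53.7% and 51.7% of all tested probe sets were below CO. Without the 2 arrays 3 of 4 were lower in P4T and 3 of 4 in E2P4T, with medians of -0.79 and -0.52. Below CO were then 59.1% and 58.5% of all tested probe sets. PC, ACACA and ACACB had an unadjusted limma p under 0.05 in E2T and in P4T on these arrays, and PC had one in E2P4T. At that limit 7.18%, 5.8% and 6.51% of all tested probe sets were lower in E2T, P4T and E2P4T.

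Downstream of succinyl-CoA, 18 tested genes of the citric acid cycle and gluconeogenesis had medians of 0.15, 0.04 and 0.13 in E2T, P4T and E2P4T, with 15, 12 and 15 of them above CO, as were 40.2%, 46.3% and 48.3% of all tested probe sets. None had an adjusted p under 0.05. PCK1, the cytosolic phosphoenolpyruvate carboxykinase, was at 0.46, 0.27 and 0.01 (SE 0.25, limma adjusted p-values of 0.873, 1.0 and 0.999). FBP1, fructose bisphosphatase, was highest in E2T and E2P4T (0.97 and 1.01, SE 0.66), with CO values from 4.56 to 10.24. G6PC1 was lowest in E2T (-0.21), SDHA in P4T (-0.31) and PCK2, the mitochondrial carboxykinase, in E2P4T (-0.22). PGK1, named after its value was seen, was the single gene of the list at an unadjusted p under 0.05 in a contrast with CO with all arrays (0.49 in E2P4T, SE 0.24, limma adjusted p = 0.933), where 2.18% of all tested probe sets were higher. Without the 2 arrays PGK1 was at 0.39 and no longer under that limit (adjusted p = 0.539), and PCK1 in E2T was (adjusted p = 0.431). Higher in E2T at that limit were then 3.03% of all tested probe sets.

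**Figure D4:**
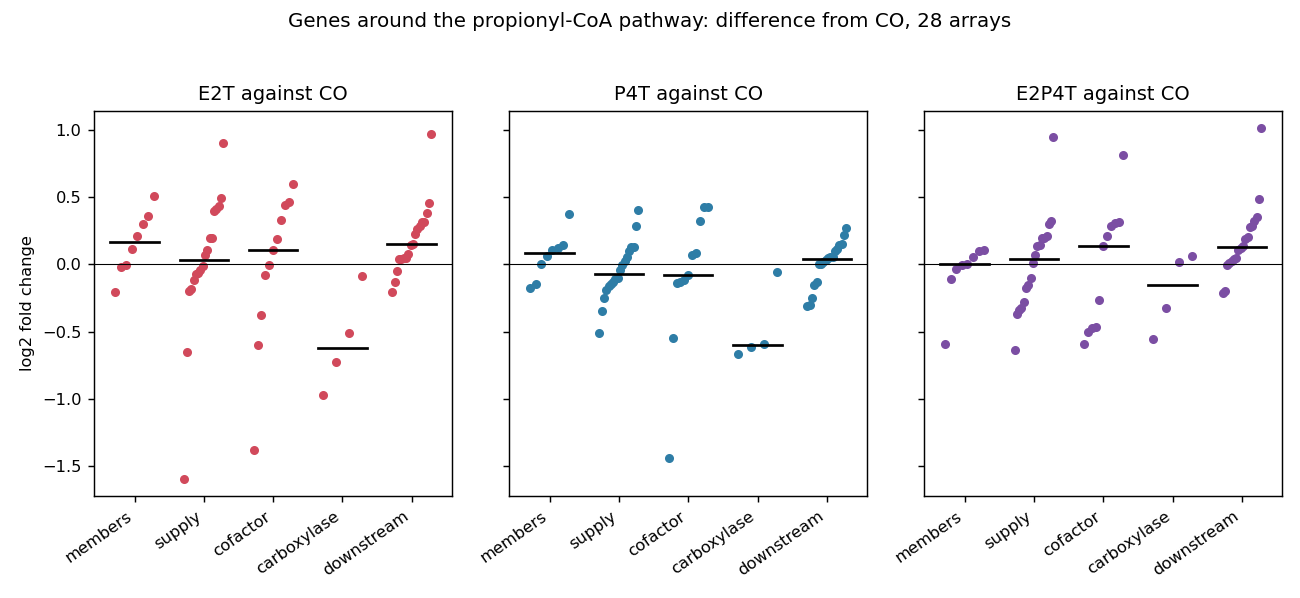
Log2 fold change from CO (vertical axis) over 28 arrays for each gene (points) of the 8 enzymes ("members"), of propionyl-CoA supply, of cobalamin and biotin handling ("cofactor"), of the other biotin carboxylases, and of the citric acid cycle and gluconeogenesis ("downstream"), with the median as a black line. The 4 other carboxylases lie below 0 in E2T and P4T.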

How the data were processed

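Biotin-labelled cRNA from oligo(dT)-selected liver mRNA was hybridized to the Affymetrix bovine array. The deposited table holds MAS5 signal intensities on a linear scale, scaled per array by the authors. The trimmed mean of the middle of each array was 999.63 to 999.8, no value was 0 or lower, and detection calls were not analysed here. Signals were set to log2 with no pseudocount. Controls aside, the table has 24016 probe sets, and 77.9% of them were tested, ranked by their maximum signal (at least 353.2) and as many as the study counts as present.

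The 4 groups were fitted together with limma 3.58.1 in R 4.3.3 (lmFit, eBayes with trend), with Benjamini-Hochberg adjustment over all tested probe sets and a threshold of 0.05. Member means were also compared with CO by exact two-sided permutation tests (scipy 1.17.1), chosen after seeing the data. The fits were tested on simulated data. The study's mixed model with cow and period was not run, since the labels give neither. Gene names came from the array annotation, which can be old. The members, gene lists and left-out arrays were chosen with earlier results of these data known. All members were named, and of each further list the genes of highest and lowest fold change in each contrast with CO, with PC, SUCLA2, MMACHC, MMADHC and PCK1 always. Genes like a member were the 3 of highest Pearson r over 26 arrays. Alternatives were quantile normalization, median centring, no filter, a stricter filter, log2 of signal plus 50, ordinary variances, array weights, a fixed or random replicate block, only the groups compared, and leaving out arrays.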

Additional observations from a re-analysis of the deposited data

Results flagged for a closer look

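In 36 groups of 7 arrays (9 probe sets in 4 groups), 9 had a highest or lowest array whose gap to its nearest neighbour was large for the range of the group. Chance flags about 1 in 20 groups, or 1.8 here. Of the 9, 6 were on P4T array 4 or E2P4T array 5. On P4T array 4 they were PCCB at 10.64 (other P4T arrays 11.97 to 12.64), SUCLG1 at 10.48 (11.85 to 12.81) and SUCLG2 at 13.06 (14.13 to 14.59). On E2P4T array 5 they were PCCB at 10.11 (other E2P4T arrays 11.82 to 12.48), MMUT at 12.11 (14.17 to 15.28) and SUCLG2 at 12.80 (14.00 to 14.43). E2T array 3 was low for MCEE at 11.70 (other E2T arrays 12.48 to 13.04) and for SUCLG1 at 11.10 (12.29 to 12.85). MMAA was at 10.73 on P4T array 2 (11.29 to 11.66 on the other P4T arrays).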

How the results depend on the processing

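The count of members with an adjusted p under 0.05 was 0 in all 10 comparisons and under each alternative run. The lowest adjusted p of a member anywhere was 0.1581, for PCCA in E2T with array weights. Of the 24 differences from CO, 8 kept their sign in every alternative and 16 changed it in 1 or more, none of the latter larger than its SE. MMAB in E2P4T lay between -0.71 and -0.40 when any 1 array was left out, and its unadjusted p was under 0.05 in 33 of 39 alternatives, not with median centring, with only the groups compared, without both arrays that stood apart, or without CO array 3, E2P4T array 5 or E2P4T array 7. PCCA in E2T lay between 0.42 and 0.64 when any 1 array was left out. Over all 39 alternatives it lay between 0.42 and 0.78, with an unadjusted limma p under 0.05 in 6 of them. With quantile normalization, chosen after seeing the data for the correlations, the pairs among PCCA, PCCB, MCEE and MMUT had r of 0.70 to 0.88 over 26 arrays and those with MMAB -0.76 to -0.48.

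With the replicate number as a block, 0 members passed in each comparison. After each tested probe set was centred on its group means, arrays with the same number in different groups correlated at -0.206 to 0.322 (median 0.037, other numbers 0.003). The labels do not tie the numbers to cows and these correlations do not settle whether they do, so the numbers were not taken as pairs. However, 11 of 28 arrays (39.3%) were closest to an array of their own number, which 3 of the 21 arrays of the other groups carry (14.3%), a hint from the data and not from the labels that some numbers may be linked.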
